A study of Mus musculus with 25 samples.

Results

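Rab GTPases are small membrane-bound proteins, and their messages were followed here in the CA1 region of mice that had been handled as pups. A gene was taken as a member where the annotation of the mouse genome array (Affymetrix) names a probe set for that gene alone and the symbol is Rab followed by a number and at most 1 letter and 1 more digit. This gave 59 genes with 132 probe sets, of 18193 genes and 45037 probe sets on the array. A probe set is a group of short probes read as 1 value. For each gene the probe set with the highest mean log2 signal over the 25 arrays led, and 38 of the 59 genes had others besides it. The members were sorted by their textbook place in the cell into 22 secretory, 13 endocytic and 9 recycling genes, and 15 genes whose place is different or less settled.

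Each Rab switches between an inactive GDP-bound form and an active GTP-bound form. Exchange factors switch it on, GTPase activating proteins switch it off, GDP dissociation inhibitors carry it through the cytosol, and effectors bind the active form to tether, move or dock a vesicle. In neurons, Rab3 proteins sit on synaptic vesicles and regulate transmitter release, Rab5 proteins mark early endosomes, Rab7 marks late endosomes, and Rab4 and Rab11 proteins return receptors from endosomes to the surface of dendritic spines.

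Every one of the 25 animals was a female of the inbred strain Balb c/J, and each gave 1 array. The 11 handled mice had been taken from their mothers for 15 min each morning from postnatal day 1 to day 14, and the 14 non-handled mice had not. The mice went through behavioral tests at an age of 8 weeks, and tissue was taken 2 weeks after that. RNA was extracted with RNA/DNA columns from 7 handled and 10 non-handled mice, here called column mice, and with Trizol from 4 handled and 4 non-handled mice, here called Trizol mice. Several pups of a group shared a litter, and which mice did is not given in the sources used here, so the p-values measure the spread between mice as if each were independent. In tissue RNA, fewer cells of a type and less RNA per cell cannot be told apart. Signal is a microarray intensity, given below on a log2 scale, and a difference of 1 is a doubling.

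The CA1 label was checked against the markers of CA1 and of its neighbours. The 5 CA1 pyramidal genes had mean signals between percentiles 84.0 (Fibcd1) and 99.0 (Wfs1) of all probe sets. The 4 CA3 genes lay between 38.7 (Iyd) and 77.7 (Nectin3), and the 5 dentate granule genes between 29.6 (Dsp) and 80.2 (Lct), so signal of some genes of the neighbouring fields was present too. Any 2 arrays correlated at 0.806 to 0.919. The spread of signal within an array moved with the groups: the variance of natural-log signal was 3.82 to 4.24 in handled and 2.88 to 3.76 in non-handled column mice, and 3.19 to 3.71 and 2.85 to 3.18 in the Trizol mice. The 3' to 5' ratio of a message is higher where RNA is less intact. For Actb its natural log was 2.24 in the non-handled column mouse NH162 and 1.07 to 1.47 in the other 24. For Gapdh it differed by extraction, at 0.72 to 1.19 in column mice, with NH162 the highest, and 1.04 to 1.35 in Trizol mice.

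The promoters of 3 called members are shown because they stand for the directions found below: Rab11a and Rab5a rose in handled mice and Rab4b fell. Each is the 250 bases before the gene's start, read 5′ to 3′ on the gene's strand, from RefSeq on GRCm38.p6. Capitals mark the GC box, GGGCGG or CCGCCC, the sequence known to be bound by Sp1.
Rab11a promoter, chr9:64737757-64738006, minus strand: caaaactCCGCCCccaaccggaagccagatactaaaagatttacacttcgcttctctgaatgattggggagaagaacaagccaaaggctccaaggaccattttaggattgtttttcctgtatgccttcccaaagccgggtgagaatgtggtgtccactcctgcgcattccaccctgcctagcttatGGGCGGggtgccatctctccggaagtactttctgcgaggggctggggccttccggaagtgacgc
Rab5a promoter, chr17:53478984-53479233, plus strand: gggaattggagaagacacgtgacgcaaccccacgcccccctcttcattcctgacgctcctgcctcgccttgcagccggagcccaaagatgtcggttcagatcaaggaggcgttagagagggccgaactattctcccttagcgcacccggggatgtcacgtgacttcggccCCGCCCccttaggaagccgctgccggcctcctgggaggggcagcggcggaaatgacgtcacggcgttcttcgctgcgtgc
Rab4b promoter, chr7:27178884-27179133, minus strand: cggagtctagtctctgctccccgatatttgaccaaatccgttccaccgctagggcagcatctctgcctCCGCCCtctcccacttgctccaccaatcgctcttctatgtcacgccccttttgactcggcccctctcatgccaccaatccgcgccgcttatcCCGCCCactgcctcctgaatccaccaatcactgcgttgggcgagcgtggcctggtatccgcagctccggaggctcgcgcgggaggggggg

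The promoter table matched 48 of the 59 genes, with 60 promoters between them. A GC box on either strand was found in 40 of the 60 (66.67%), against 32.74% of all 32851 promoters in the table. The median GC content was 60.2% against 52.4%. A TATA box (TATAAA, either strand) was found in 4 of the 60 (6.67%), against 12.37% of all. These shares are counts, and no difference between them was tested. Of the members that rose, 5 had a promoter in the table, and all 5 of these held a GC box. Of 14 promoters of 7 members that fell, 9 did. Each rising member had 1 promoter, but Rab3a, Rab15 and Rab43 had more than 1, so these counts use unlike units. Of the 7 members that fell, only Rab8a held no GC box in any promoter. A cyclic AMP response element (TGACGTCA) was present in 2 of the 60 Rab promoters, against 1.55% of all, and Rab5a held 1 of them. These are matches of letters and say nothing about binding.

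Handling was compared with limma, with extraction method in the fit and p-values adjusted over all 45037 probe sets. Of the 59 leading probe sets, 14 passed an adjusted p under 0.05, 6 higher and 8 lower in handled mice. Over all 18193 genes 14.2% passed, 4.47% higher and 9.7% lower, and among genes in the upper 50% of mean signal, where 50 of the 59 Rab genes lie, 17.4% passed, 7.03% higher and 10.3% lower. The called share of the Rab genes was 23.7%, or 10.2% higher and 13.6% lower, and this excess over the background was not tested. The median difference over the 59 was -0.074 on the log2 scale, and over all genes it was -0.12. That median of all genes moved to -0.013 with quantile normalization and -0.012 when each array was scaled to the same mean and variance. Small differences thus depend on how the arrays are scaled, and more than the 0 point moved. With scaled arrays the rise of Rab10 shrank from 0.23 to 0.038, while the fall of Rab3a grew from -1.21 to -1.39. The called Rab genes split 4 higher and 9 lower with quantile normalization and 2 higher and 10 lower with scaled arrays. The shares of all genes called in these 2 settings are not given here, so this shift was not set against the whole array.

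Calls were found in each of the 3 main classes. Of the secretory genes, 8 of 22 were called (4 higher, 4 lower) and the median difference was 0.014. Of the endocytic genes, 2 of 13 were called (1 higher, 1 lower), with a median of -0.0035. Of the recycling genes, 4 of 9 were called (1 higher, 3 lower), and the median was -0.46, with 7 of 9 below 0. Among those below 0, the uncalled Rab17 and Rab25 were dim, at percentiles 48.4 and 23.7 of mean signal. They differed by -0.48 ± 0.26 and -0.56 ± 0.41, so the median rests in part on weak signal. None of the 15 remaining genes was called by limma, and 1 had an unadjusted p under 0.05. The classes were compared by these counts alone, and the difference between them was not tested.

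**Figure D1:**
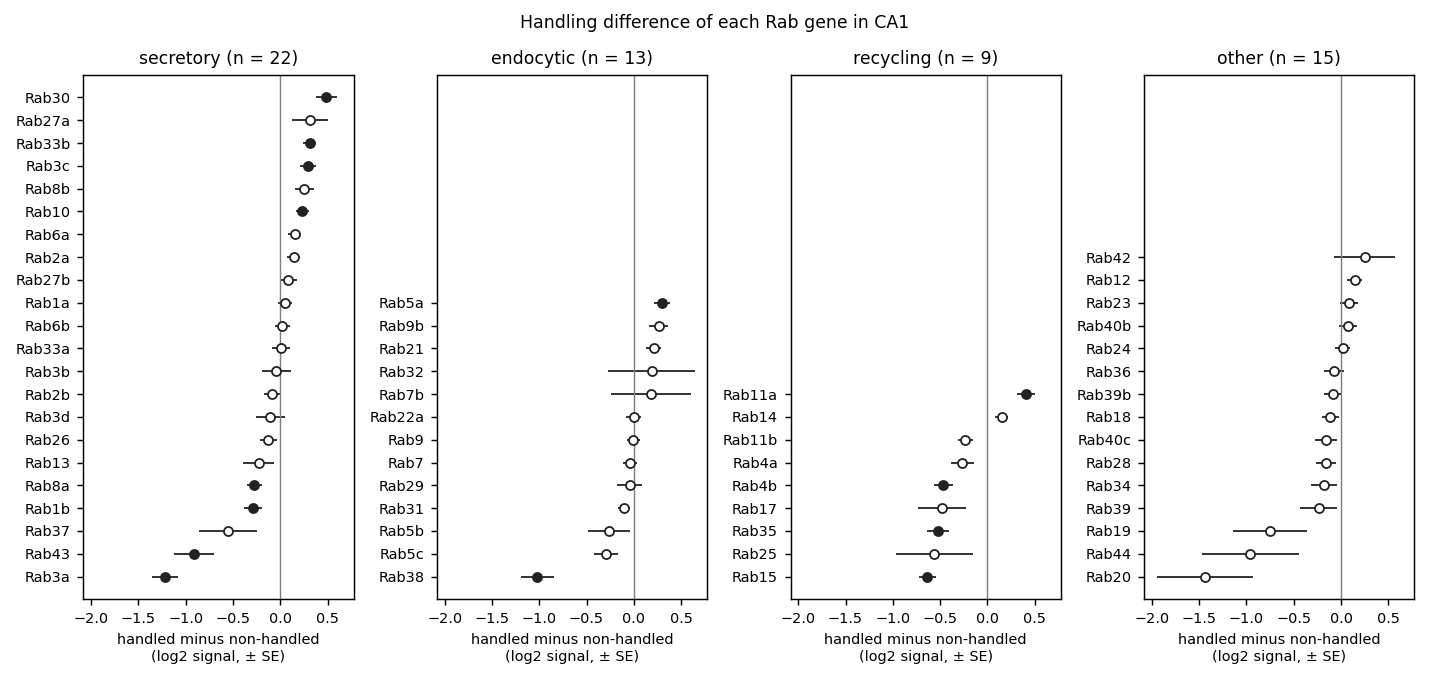
Difference in log2 signal between handled and non-handled mice for the leading probe set of each Rab gene, by class, with its standard error. Filled points passed an adjusted p under 0.05 (limma, n = 11 handled and 14 non-handled). The recycling genes lie mostly left of 0, down to -0.64 for Rab15, with Rab11a at 0.41 on the other side.

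Among the 8 secretory genes of regulated exocytosis, 2 were called. Rab3a, the main Rab of synaptic vesicles, gave the lowest p of the leading probe sets. In column mice its signal ran from 11.98 through a median of 12.29 to 12.51 in handled and from 13.53 through 13.82 to 14.49 in non-handled mice. In Trizol mice it was 12.01, 13.04, 12.48 and 12.95 in handled and 13.28, 13.07, 12.88 and 13.20 in non-handled mice. The column groups were well apart, while the Trizol groups overlapped. The difference was -1.21 ± 0.14 (SE), or 0.431-fold, with a limma adjusted p of 4.83e-07. It was -1.57 in column mice and -0.49 in Trizol mice, and the test of the difference between these 2 values gave an adjusted p of 0.053. This rests on 1 probe set whose suffix, _x_at, marks probes that can also bind other transcripts: the second Rab3a probe set, 1422589_at, differed by -0.17 ± 0.095 (adjusted p = 0.228).

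Rab3c, a relative of Rab3a on the same vesicles, went the other way. Handled column mice had values of 12.49 to 12.95 (median 12.81) and non-handled ones 12.04 to 12.81 (median 12.46). The Trizol values were 13.34, 13.34, 13.27 and 13.48 in handled and 13.09, 13.28, 13.35 and 13.34 in non-handled mice. The groups overlapped under both extractions. Rab3c rose by 0.29 ± 0.085 (adjusted p = 0.0253), but with arrays scaled to the same variance the difference was 0.11 (adjusted p = 0.533). Rab3b and Rab3d, the other members of the subfamily, differed by -0.041 and -0.11 and were not called.

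**Figure D2:**
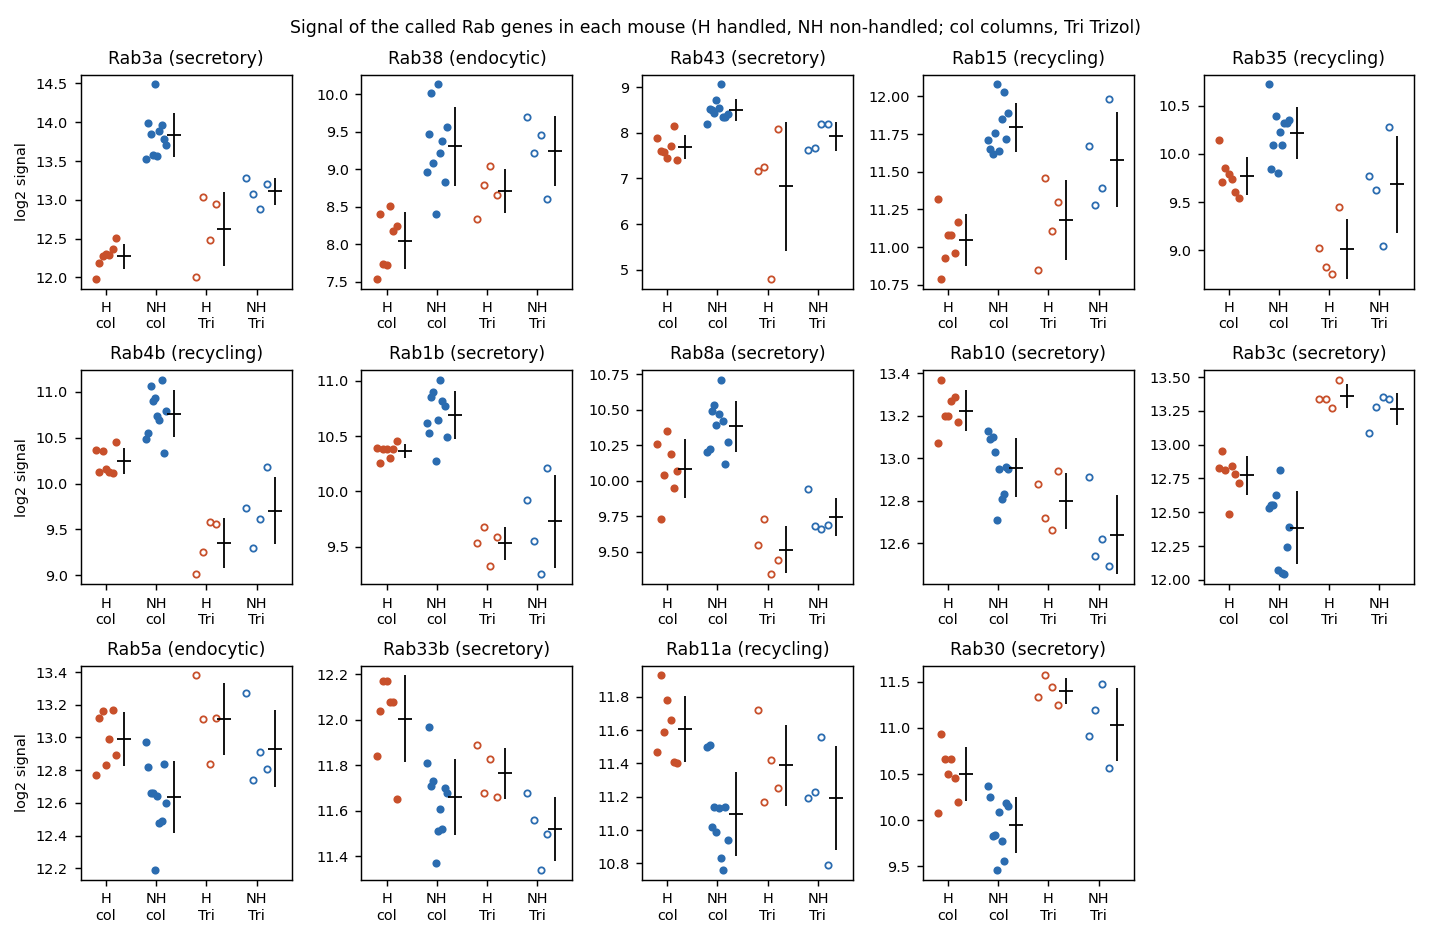
Log2 signal of the 14 called Rab genes in each mouse, ordered from the largest fall (Rab3a) to the largest rise (Rab30). Points are mice, in handled (H) and non-handled (NH) groups extracted with columns (col, filled, 7 and 10 mice) or Trizol (Tri, open, 4 and 4 mice), and the bar beside each group is its mean with SD. In column mice the handled group lies wholly below the non-handled group for Rab3a, Rab43 and Rab15.

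In the transport from the endoplasmic reticulum to and within the Golgi, 4 of 10 genes were called, 2 in each direction. Rab30, a Golgi Rab, rose most of all 59 genes. Its values were 10.08 to 10.93 (median 10.50) in handled and 9.46 to 10.37 (median 9.97) in non-handled column mice. With Trizol they were 11.34, 11.57, 11.44 and 11.25 against 10.91, 11.19, 11.48 and 10.56. Handled mice tended to lie higher, with overlap in both. The difference was 0.49 ± 0.11 (1.40-fold, adjusted p = 0.0044), and it was 0.55 in column and 0.37 in Trizol mice. A second probe set differed by the same 0.49 with a larger error of 0.25 and was not called.

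Rab33b, which acts at the Golgi and in autophagosome formation, also rose. Handled column mice ran from 11.65 to 12.17 and non-handled ones from 11.37 to 11.98. The Trizol values were 11.89, 11.68, 11.83 and 11.66 in handled and 11.68, 11.56, 11.34 and 11.50 in non-handled mice, so the groups nearly separated. Rab33b differed by 0.31 ± 0.073 (adjusted p = 0.0059), and by 0.20 with scaled arrays (adjusted p = 0.0771).

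Rab43, which acts in traffic through the Golgi, fell. In column mice handled values of 7.41 to 8.15 lay below non-handled values of 8.19 to 9.06. In Trizol mice they were 7.17, 7.24, 4.80 and 8.08 in handled and 7.63, 7.67, 8.19 and 8.19 in non-handled mice. The value of 4.80 belongs to H130 and is far below every other mouse. The difference was -0.91 ± 0.21 (adjusted p = 0.0056), and leaving out each mouse in turn kept it between -1.03 and -0.70. Its other 2 probe sets differed by -0.67 and -0.49 without passing.

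Rab1b, which acts in the first step from the endoplasmic reticulum, fell by 0.29 ± 0.091 on the log2 scale (adjusted p = 0.0363). Handled column mice were tightly grouped, at 10.26 to 10.46, beside the low end of the non-handled range of 10.28 to 11.01. The Trizol values were 9.53, 9.68, 9.33 and 9.59 in handled and 9.92, 9.55, 9.25 and 10.21 in non-handled mice, with the handled group inside the range of the other. This was the least stable call: it was lost on leaving out any of 13 of the 25 mice, with the difference between -0.34 and -0.24, and with scaled arrays (adjusted p = 0.06). Its close relative Rab1a differed by 0.048 and was not called.

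Of the 4 Rabs that carry cargo from the Golgi to the plasma membrane, Rab10 and Rab8a were called in opposite directions. Rab10 acts in the insertion of membrane into growing axons and dendrites. Handled column mice had Rab10 values of 13.07 to 13.37 and non-handled ones 12.71 to 13.13, and the Trizol values were 12.88, 12.72, 12.66 and 12.94 against 12.91, 12.54, 12.62 and 12.49. The difference was 0.23 ± 0.067 (adjusted p = 0.0227), and 0.038 with scaled arrays (adjusted p = 0.798). Another Rab10 probe set, 1429296_at, differed by 0.44 ± 0.12 (adjusted p = 0.0199), and there every handled column mouse lay above every non-handled one. Rab8a, which delivers receptors to dendrites and membrane to cilia, fell by 0.28 ± 0.080 on the log2 scale (adjusted p = 0.0236), with values of 9.73 to 10.35 in handled and 10.12 to 10.71 in non-handled column mice. In Trizol mice Rab8a was 9.55, 9.73, 9.34 and 9.44 against 9.94, 9.68, 9.66 and 9.69, with 1 handled mouse among the non-handled values. The Rab8a call was lost with RNA quality covariates (-0.24, adjusted p = 0.0738) and over the mean of its 3 probe sets (-0.13, adjusted p = 0.703). Its partner gene Rab8b differed by 0.26 and was not called (adjusted p = 0.0839).

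Among the early endosome Rabs, 1 of 6 was called. Rab5a, which drives the fusion of early endosomes, had values of 12.77 to 13.17 (median 12.99) in handled and 12.19 to 12.97 (median 12.65) in non-handled column mice. In Trizol mice they were 13.38, 13.11, 12.84 and 13.12 against 13.27, 12.74, 12.91 and 12.81. Both pairs of groups overlapped, with the handled group higher in its middle. Rab5a rose by 0.30 ± 0.085 (adjusted p = 0.0216), and the difference was 0.11 with scaled arrays (adjusted p = 0.446). Rab5c and Rab5b, which share the early endosome, differed by -0.29 and -0.26 and were not called (adjusted p = 0.126 and 0.458). Rab21, which guides integrin uptake, differed by 0.21 in all mice (adjusted p = 0.0875), by 0.31 in column mice, where it passed (adjusted p = 0.0277), and by 0.0057 in Trizol mice.

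Of the 7 Rabs of late endosomes, lysosomes and related organelles, Rab38 alone was called. Rab38 is known for melanosomes and other lysosome-related organelles. Its values were 7.54 to 8.52 (median 8.18) in handled and 8.41 to 10.13 (median 9.29) in non-handled column mice. With Trizol they were 8.34, 8.79, 9.04 and 8.65 against 9.70, 9.22, 9.45 and 8.60. A single non-handled mouse lay within the handled range in each extraction group. The difference was -1.02 ± 0.17 (0.493-fold, adjusted p = 2.14e-04). As for Rab3a, the probe set has the _x_at suffix, and the other probe set of Rab38 differed by 0.19 ± 0.31 and was not called. Rab7, the defining Rab of late endosomes, differed by -0.040 ± 0.075.

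The recycling endosome held the 3 falls Rab15, Rab35 and Rab4b, and 1 rise, Rab11a. Rab15, known to slow early endosome fusion and to act at the recycling compartment in neurons, ran from 10.79 to 11.32 (median 11.08) in handled and from 11.62 to 12.09 (median 11.74) in non-handled column mice. In Trizol mice it was 10.85, 11.46, 11.11 and 11.30 in handled and 11.67, 11.28, 11.39 and 11.98 in non-handled mice. The column groups did not overlap, and the Trizol groups did. The difference was -0.64 ± 0.088 (0.644-fold, adjusted p = 1.25e-05). Rab15 has a single probe set, and the call held in every fit over both extraction groups that was run.

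Rab35 sorts recycling cargo at the plasma membrane and acts in neurite outgrowth. Handled column mice had values of 9.54 to 10.14 and non-handled ones 9.80 to 10.72. The Trizol values were 9.02, 8.83, 8.76 and 9.45 against 9.77, 9.63, 9.05 and 10.28. The difference was -0.52 ± 0.12 (0.697-fold, adjusted p = 0.0038), at -0.45 in column and -0.67 in Trizol mice.

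Rab4b, of the rapid recycling route, ran from 10.12 to 10.45 in handled and from 10.33 to 11.13 in non-handled column mice. In Trizol mice it was 9.01, 9.25, 9.58 and 9.56 against 9.73, 9.30, 9.61 and 10.18. The difference was -0.46 ± 0.098 (0.725-fold, adjusted p = 0.0027). The related Rab4a differed by -0.27 and was not called (adjusted p = 0.144).

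Rab11a, the Rab of the slow recycling endosome that supplies AMPA receptors to spines, rose. Its values were 11.40 to 11.93 (median 11.59) in handled and 10.76 to 11.52 (median 11.08) in non-handled column mice, and 11.72, 11.17, 11.42 and 11.25 against 11.19, 11.23, 11.56 and 10.79 in Trizol mice. The column groups overlapped by a few mice and the Trizol groups by most. The difference was 0.41 ± 0.097 (1.33-fold, adjusted p = 0.0069), but the second Rab11a probe set differed by 0.044 ± 0.073 (adjusted p = 0.737). Rab11b, its close relative, differed by -0.23 ± 0.081 and just missed the threshold (adjusted p = 0.0548). It passed in column mice alone, at -0.32 (adjusted p = 0.0165), while its mean over 3 probe sets differed by -0.015. Rab14, which sorts between Golgi and endosomes, differed by 0.15 in its leading probe set (adjusted p = 0.136), while 2 of its other 6 were called at 0.42 and 0.39. With scaled arrays the leading Rab14 difference turned to -0.11.

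The 2 extraction groups share no mouse, so the column result can be set beside the Trizol mice. Whether littermates lie in both groups is not known, so the groups may not be independent. In column mice alone, limma called 16 Rab genes (7 higher, 9 lower), against 14.8% of all genes (5.5% higher, 9.31% lower). All 16 had the same sign in Trizol mice. Of all 2694 genes called in column mice, 80.7% had the same sign there. The median difference of the 7 higher genes was 0.35 in column and 0.18 in Trizol mice, and that of the 9 lower genes was -0.52 and -0.40. In the 4 against 4 Trizol mice limma called none of the 59 and 0% of all 18193 genes, with 6 Rab genes and 1194 of all genes at an unadjusted p under 0.05.

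**Figure D3:**
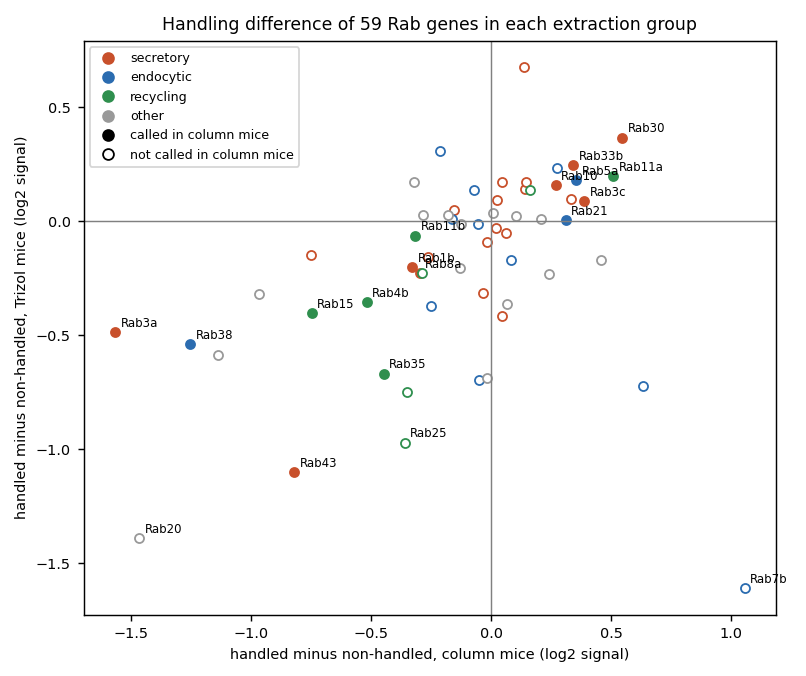
Handled minus non-handled difference in log2 signal of each of the 59 Rab genes, in column mice (7 against 10) on the horizontal and in Trizol mice (4 against 4) on the vertical axis. Colors give the class, and filled points were called in column mice. All 16 filled points lie in the quadrants of equal sign, from Rab3a at -1.57 and -0.49 to Rab30 at 0.55 and 0.37.

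Whole separation of the groups was seen for few members. In column mice every handled value lay below every non-handled one for Rab3a, Rab15 and Rab43 (3 of 59, against 1.65% of all genes), and none lay wholly above (against 0.599%). In Trizol mice, Rab27a lay wholly above (1 of 59, against 0.83%) and Rab5c and Rab7b wholly below (2 of 59, against 3.5%). Over all its probe sets the mean of Rab27a differed by -0.34 in the fit with all mice, against 0.31 for the leading one, and neither passed. Rab7b, at 1.06 in column and -1.61 in Trizol mice, was dim, with a mean signal of 5.34, and was called in neither. No Rab gene was called by limma for a handling difference that depended on extraction, against 0.077% of all genes, both by adjusted p. In the same test 5 Rab genes had an unadjusted p under 0.05. The share of all genes at that looser threshold is not given here, so no excess can be read from it.

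Probe sets of 1 gene often gave different answers. Over all 132 Rab probe sets, 23 were called (11 higher, 12 lower), against 11.5% of all probe sets (3.58% higher, 7.93% lower). The 8 called genes with more than 1 probe set had 14 others, of which 12 had the same direction as the leading one and 1 was called. The largest fall of any Rab probe set was in Rab6b, a Golgi Rab of neurons, and it was not the leading one. This probe set, 1455924_at, is described here after its values were seen. It ran from 8.22 to 8.93 in handled and from 10.82 to 12.62 in non-handled column mice, and was 8.53, 9.17, 10.35 and 10.12 against 11.47, 10.62, 10.62 and 10.52 in Trizol mice. The groups did not overlap under either extraction. The difference was -2.37 ± 0.22 (adjusted p = 3.85e-08), whereas the leading Rab6b probe set differed by 0.024 ± 0.082 and the remaining 2 by -0.087 and 0.037.

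**Figure D4:**
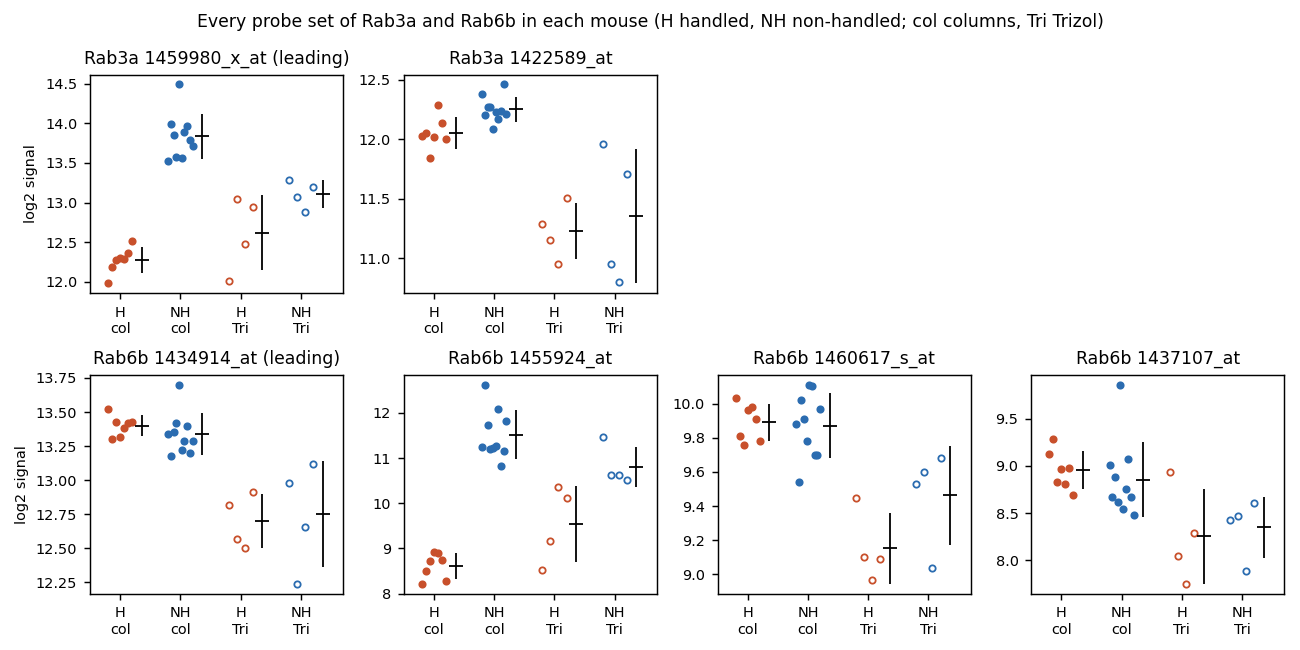
Log2 signal in each mouse for the 2 probe sets of Rab3a and the 4 of Rab6b, with groups, points and bars (mean with SD) as in the plot of called genes by mouse. Rab3a 1459980_x_at and Rab6b 1455924_at fall in handled mice by 1.21 and 2.37 on the log2 scale, and the other probe sets of the same genes do not separate the groups.

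Other second probe sets were called where the leading one was not. Rab2a, of the early secretory route, differed by 0.32 at 1418621_at against 0.14 at its leading probe set, and Rab6a, which moves vesicles from the Golgi, by 0.29 at 1447776_x_at against 0.15. Falls were called at 1 probe set each of Rab2b (-0.85), Rab8b (-1.53) and Rab17 (-1.59), where the leading ones differed by -0.089, 0.26 and -0.48. The Rab8b and Rab17 probe sets were dim, with mean signals of 4.03 and 5.58.

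Extraction moved more Rab genes than handling did, as it did over all genes. With columns, 24 of the 59 were higher and 8 lower than with Trizol (limma, handling in the fit), so that 32 (54.2%) were called. This is against 41.2% of all genes (23.7% higher, 17.5% lower) and 58.5% of those in the upper 50% of signal. The Rab share lies between these, so the count does not set the Rab genes apart. The median difference was 0.20 over the Rab genes and -0.015 over all genes, which moved to 0.26 under either rescaling of the arrays. Among called genes, the 5 largest rises were in Rab11b (1.29), Rab5c (1.095), Rab4b (0.98), Rab1b (0.90) and Rab13, a Rab of cell junctions (0.84). Among called genes, the 5 largest falls were in Rab34 (-1.05), which acts in cilia, Rab30 (-0.998), Rab3c (-0.74), Rab9b (-0.53) and Rab27a (-0.52), a Rab of secretory granules. The dim Rab19 differed by -0.93 ± 0.42 and was not called (adjusted p = 0.0752). These values are of leading probe sets, and others of the same genes could differ more or the other way. The Rab12 probe set 1457783_at ran from 2.71 to 4.52 in column and from 7.17 to 8.25 in Trizol mice, while the leading one differed by 0.47. With the mean over all probe sets of a gene 30 were called for extraction, and 24 of the 32 kept their call.

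In 6 genes (Rab1b, Rab5c, Rab6b, Rab11b, Rab21 and Rab31) every column mouse lay above every Trizol mouse, against 5.18% of all genes. Rab3c did the reverse, against 4.75%. Rab11b ran from 11.14 to 11.90 in column and from 10.01 to 10.65 in Trizol mice, and Rab3c from 12.04 to 12.95 and from 13.09 to 13.48. Markers of many cell types were called higher with columns too. All 5 microglia, 5 astrocyte and 4 oligodendrocyte markers were called higher, as were 4 of 5 CA1 genes (Fibcd1, at 1.39, the most), 2 of 5 neuronal, 2 of 5 interneuron, 2 of 4 endothelial and mural and 1 of 4 CA3 markers. A marker each of CA1, CA3 and dentate cells (Man1a, Nectin3 and Prox1) was called lower, and none of the 5 choroid plexus markers was called by limma, with 0 at an unadjusted p under 0.05. Under either rescaling all 5 microglia markers kept their call, whereas 4 of 5 astrocyte and 2 of 4 oligodendrocyte markers were called higher, 2 choroid plexus markers were called higher, and the CA1 genes called higher were 2 with quantile normalization and 3 with scaled arrays. The summed microglia signal was 13.92 to 14.78 in column and 12.72 to 13.41 in Trizol mice, without overlap, and the summed CA1 signal was 14.32 to 15.29 and 14.29 to 14.89, with overlap. The shares of all genes called under the rescalings are not set beside these marker counts. The part of these cell types in the extraction differences of the Rab genes was not tested.

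**Figure D5:**
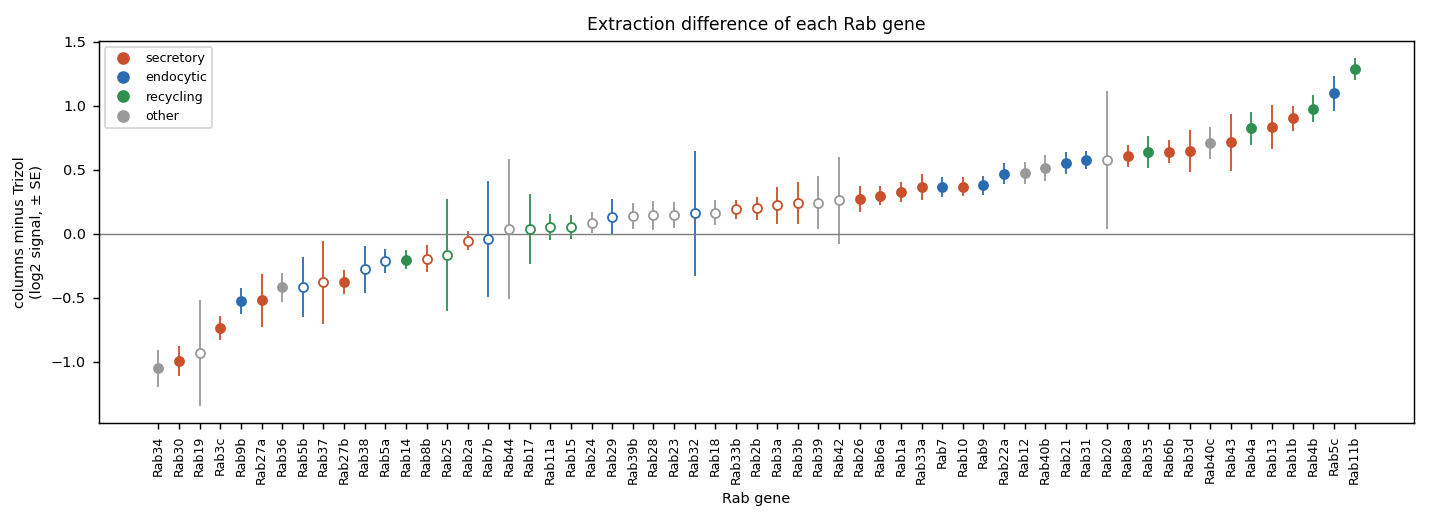
Column minus Trizol difference in log2 signal for the leading probe set of each Rab gene, with its standard error, in order of size. Colors give the class and filled points passed an adjusted p under 0.05 (limma, 17 column and 8 Trizol mice). The range is from -1.05 for Rab34 to 1.29 for Rab11b.

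The proteins that act on Rabs were read from a list of 97 genes, of which 90 were measured. Of these, 13 were called for handling (6 higher, 7 lower), or 14.4%, which is close to the 14.2% of all genes and below the 17.4% of those in the upper 50% of signal, so the count does not set them apart. The median difference was 0.0056. Exchange factors gave 2 of 24, GTPase activating proteins 2 of 22, effectors of exocytosis 3 of 10, effectors of endosomes 3 of 12, effectors of recycling and the Golgi 2 of 15, and the inhibitor and escort proteins 1 of 3. None of the 2 prenylation subunits and none of the kinase and phosphatase of Rabs was called, with 1 and 0 at an unadjusted p under 0.05.

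The activating protein Tbc1d16, which acts on Rab4a, had the lowest p, at -0.57 ± 0.092 (adjusted p = 1.20e-04), and handled mice lay wholly below non-handled mice under both extractions. Rab11fip2, an effector that links Rab11 to the motor myosin V, rose by 0.43 ± 0.096 (adjusted p = 0.0038), while Rab11fip1, another Rab11 effector, fell by 0.96 ± 0.25 on the log2 scale (adjusted p = 0.0111). Eea1, the tether that Rab5 recruits to early endosomes, rose by 0.53 ± 0.14 (adjusted p = 0.0123). Sytl2, an effector of Rab27, rose by 0.38 and Rab3il1, an exchange factor for Rab8 and Rab3a, fell by 0.92 on the log2 scale. Rab11fip1 and Rab3il1 were dimmer, at percentiles 50.1 and 58.3 of mean signal, than Rab11fip2 at 94.1. The Rab3il1 difference was -1.33 in column and -0.089 in Trizol mice, and that of Eea1 was 0.71 and 0.18. Evi5l and Rilpl2, an activating protein and an effector, fell by 0.43 and 0.48. Their differences were larger in Trizol mice, at -0.52 against -0.39 in column mice for Evi5l and -0.50 against -0.48 for Rilpl2. With quantile normalization 6 of the 90 were called and with scaled arrays 7, without the shares of all genes in those settings beside them.

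Markers of cell types were read beside the handling result. None of the 5 CA1, 5 dentate, 4 CA3, 4 oligodendrocyte or 5 microglia markers was called by limma, with 1, 0, 0, 0 and 2 at an unadjusted p under 0.05. Among 5 interneuron markers Gad2 rose by 0.86 and Gad1 by 0.30, and Pvalb fell by 0.32. Of the other lists, Camk2a, Cldn5 and the choroid plexus genes Folr1 and Clic6 fell and Aqp4 rose. Over all genes 14.2% were called for handling, and 17.4% of those in the upper 50% of mean signal. A list of 4 or 5 genes with few or no calls is thus not set apart by its count, and no list was tested as a set. The summed interneuron signal was 13.95 to 14.25 in handled and 13.49 to 14.03 in non-handled column mice, and 13.70 to 14.26 and 13.55 to 13.84 in Trizol mice. The summed choroid plexus signal was 8.79 to 9.31 and 9.02 to 10.01 in column mice, and 8.99 to 9.23 and 9.38 to 11.69 in Trizol mice. Their part in the Rab differences was not tested.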

How the data were processed

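CA1 RNA of 25 mice was measured on 1 Affymetrix mouse genome array each. The authors deposited MAS 5.0 signal, a linear intensity scaled per array by a single factor, made with Affymetrix Expression Console per the submitters' processing notes. Here the deposited intensity was log2 transformed with no further normalization. Of 45101 probe sets, 64 controls were left out. Extraction method was read from the list positions in the extraction text of the labels. Arrays hold 1 value per probe set, so the number of mice limits precision.

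Probe sets were named through GEO's platform annotation, with symbols updated by gene identifier. Two-sided fits were made with limma 3.58.1 (R 4.3.3, trended prior) and tested on simulated data. Their p-values were adjusted over 45037 probe sets after Benjamini and Hochberg, and 0.05 was the threshold. Tables and plots used Python 3.11.15, numpy 2.4.6, pandas 2.3.3 and matplotlib 3.10.9. Genes named are every called leading Rab probe set, the 8 lowest p in each class, Rab3a, Rab3b, Rab3c, Rab3d, Rab5a, Rab7, Rab4a and Rab11a, the 5 largest rises and falls with extraction among called genes, and the 8 regulators with the lowest p. Names outside this rule were chosen after their values were seen. The members and lists were chosen with earlier results of these data known. The fits were repeated with quantile-normalized values, with every array brought to 1 common mean and variance, with 32 added to the signal, in the upper 50% of mean signal, with no trend in the prior, with array weights, RNA quality covariates (3' to 5' ratios of Gapdh and Actb), no extraction term, each extraction group alone, the mean over all probe sets of a gene, and each mouse left out. Extraction within handled or non-handled mice was added after the data were seen.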

Additional observations from a re-analysis of the deposited data

Results flagged for a closer look

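In each group by extraction method, the highest and the lowest mouse of each named Rab gene were compared with the rest by Dixon's test. With 29 genes and 4 groups each, a mouse stood apart in 4 cases, and chance alone gives about 1 in 20. For Rab3a, the non-handled column mouse NH162 had 14.49 where the other 9 had 13.53 to 13.99, on the side away from the handled mice; this mouse also had the highest 3' to 5' ratio of Actb. For Rab8a, the non-handled Trizol mouse NH138 had 9.94 and the others 9.66 to 9.69. For Rab21, the non-handled column mouse NH142 had 10.5 and the others 9.88 to 10.2. For Rab17, the non-handled Trizol mouse NH147 had 5.55 and the others 7.1 to 7.27. Without NH162 the Rab3a difference still passed, at -1.15 (limma adjusted p = 2.9e-07). This was the smallest fall among the 25 fits that left out 1 mouse, which ran from -1.29 to -1.15.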

How the results depend on the processing

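The 14 Rab genes called for handling became 7 without the extraction term (2 higher, 5 lower) and 0 in Trizol mice alone (0 higher, 0 lower), where 8 mice remain. The 6 higher became 2 with scaled arrays, and 9 of the 14 kept their call there, with Rab1b, Rab3c, Rab5a, Rab10 and Rab33b lost. Quantile normalization lost Rab3c and Rab5a, the fit with no trend in the prior lost Rab1b, Rab3c and Rab5a, RNA quality covariates lost Rab8a, and the mean over probe sets lost Rab3c, Rab8a and Rab38. No called gene changed direction under any alternative. With each mouse left out in turn, 11 to 19 were called. The Rab genes called for dependence on extraction rose from 0 to 1, always Rab3a, with an offset of 32 (adjusted p = 0.0488), in the upper 50% of signal (1, adjusted p = 0.0446), with array weights (1, adjusted p = 0.0334) and with RNA quality covariates (1, adjusted p = 0.0115), and ranged from 0 to 1 with each mouse left out, reaching 1 without H113, H123, NH142 or NH162. Its adjusted p over the alternatives and left-out mice ran from 0.00168 to 0.473. The 13 regulators and effectors became 6 with quantile normalization, 7 with scaled arrays, 8 with RNA quality covariates, 4 without the extraction term and 0 in Trizol mice, and ranged from 8 to 16 with each mouse left out, the 8 being without H109 or NH165. The 32 calls for extraction ranged from 22 (RNA quality covariates) to 38 (scaled arrays), and were 29 in handled and 27 in non-handled mice alone, a split chosen after the data were seen. No paired analysis was possible because no 2 mice share a replicate number. Dim members had standard errors of up to 0.51, so differences of the size seen in most called genes were not detectable in them.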

Other observations

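Handling and extraction differences could point opposite ways in 1 gene. Of the 14 genes called for handling, Rab4b, Rab35, Rab8a, Rab1b and Rab43 were lower in handled mice and higher with columns (0.98, 0.64, 0.61, 0.90 and 0.71), while Rab3c and Rab30 were higher in handled mice and lower with columns (-0.74 and -0.998). Rab10 was called higher for both (0.23 with handling and 0.37 with columns). In their leading probe sets over all mice, Rab3a, Rab5a, Rab11a, Rab15, Rab33b and Rab38 were not called for extraction (0.22, -0.21, 0.051, 0.054, 0.19 and -0.28). For Rab3a this value hides opposite signs. It was called in non-handled mice alone, at 0.73 (limma adjusted p = 7.51e-04), and differed by -0.35 in handled mice (adjusted p = 0.085). The mean over all probe sets of a gene was called for extraction for Rab3a (0.54, adjusted p = 4.67e-05), Rab11a and Rab33b. Some close relatives had handling differences of opposite sign: Rab3a and Rab3c, Rab11a and Rab11b, Rab8a and Rab8b, and Rab5a and Rab5c. The first gene of each pair was called, and the second was called for Rab3c alone. Other relatives shared a sign, such as Rab4a and Rab4b (-0.27 and -0.46). The other probe sets of Rab8b and Rab11b had the sign opposite to their leading one. With scaled arrays the rises of Rab3c and Rab5a were each 0.11 and not called. The difference within a pair was not tested.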
